A study of Mus musculus with 15 samples.

Results

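The genes described here are 26 genes of GABA and glycine transmission, out of 45777 features in the deposited tables, measured by RNA-seq in the striatum of male ICR mice. They were picked by gene symbol, with earlier results of these data known. The list holds 4 genes of GABA synthesis, packaging and breakdown, 11 GABA-A receptor subunits and 2 GABA-B receptor subunits. It also holds 3 genes of the postsynaptic scaffold, 2 chloride cotransporters and 4 genes of glycine transmission. All 26 symbols were found in both tables. Founder males had been injected under the skin with methamphetamine (METH, a psychostimulant) at 5 mg/kg or with saline at 10 mL/kg on each of 21 days and then mated with untreated females. The 15 libraries came from 3 sons of METH founders (F1 METH), 4 sons of saline founders (F1 saline), 4 grandsons of METH founders (F2 METH) and 4 grandsons of saline founders (F2 saline). The F2 were bred from F1 males and untreated females. All 15 animals were wild type, male and 7 weeks old, and per the labels' protocols the drug or saline was given to the founders. No label names the litter or founder of an animal, so each p-value measures the spread between these animals, some of which may share a sire.

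GABA is the main inhibitory transmitter of the striatum, whose spiny projection neurons are themselves GABAergic. It is made from glutamate by GAD67 and GAD65, loaded into vesicles by VGAT and degraded by GABA transaminase. It acts on GABA-A receptors, pentameric chloride channels whose subunits set their place and pharmacology, and on GABA-B receptors, which couple to G proteins. Glycine receptors are related chloride channels, and both kinds of channel are held at synapses by gephyrin. How far chloride flows inward depends on 2 cotransporters, KCC2, which exports it, and NKCC1, which imports it.

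Library totals were 32805918 to 38514778 counts in F1 METH, 35044343 to 37659436 in F1 saline, 31563806 to 47199267 in F2 METH and 34622167 to 50573906 in F2 saline. The 26 genes took 0.422% to 0.472%, 0.461% to 0.528%, 0.510% to 0.542% and 0.518% to 0.541% of the counts of those groups, in the same order. The spiny projection neuron markers Drd1 (160.0 to 296 CPM) and Penk (1061 to 1949 CPM) were present in every library, where CPM is the read count scaled to the TMM-adjusted total of a library. Although the samples carry a neuronal cell type label, they are pieces of tissue: summed over 10 markers each, astrocyte genes reached 3410 to 5657 CPM and mature oligodendrocyte genes 6962 to 13469 CPM across the 15 libraries. Of the 10 thalamic and hypothalamic markers, Hcrt was at 0 in 12 libraries, Otp in 10, Avp in 6, Pmch in 5 and Oxt in 1. The others were present in every library. Slc17a6 had 0.132 to 12.1 CPM, Prkcd 6.67 to 14.5, Lef1 4.62 to 8.17, Synpo2 9.56 to 27.4 and Zic1 11.9 to 29.9. Slc17a7, a glutamate transporter gene of cortical neurons that defines the cortical marker list, ranged from 9.47 to 526 CPM. It stood above 100 CPM in F1 METH replicate 3, F1 saline replicates 1 and 3, F2 METH replicate 2 and F2 saline replicate 4, and results that rest on those libraries are given below with and without them. F2 saline replicates 2 and 3 stood apart in the heat shock gene Hspa1b, with 46.5 and 29.3 CPM, against 8.21 to 10.9 CPM in F2 METH and 8.09 and 15.8 CPM in the other F2 saline libraries. In the heat shock gene Hspb1, F2 saline replicate 1 (5.82 CPM) stood with replicates 2 and 3 (6.45 and 7.78 CPM). Replicate 4 had 2.90 CPM of it and F2 METH 2.12 to 3.49 CPM. Fits without replicates 2 and 3 kept replicate 1.

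Several of the receptor genes lie beside each other in the genome (GRCm38.p6, the same build as the mm10 of the submitters' processing notes). On chromosome 5 the order is Gabrg1, Gabra2, Gabra4 and Gabrb1; Gabra4 (chr5:71569734-71658308, minus strand) and Gabrb1 (chr5:71657921-72149572, plus strand) point away from each other and share 388 bases at their starts. Whether counting used strand is not given in the sources used here, so reads in the shared bases cannot be told apart. Gabrg3 and Gabra5 are neighbours on chromosome 7, with 20453 bases between them, and Gabre, Gabra3 and Gabrq lie on chromosome X. Promoters of 4 of these subunits are shown because they are the head-to-head pair, the most variable of the alpha subunits and the alpha subunit with the smallest p in F1. Each runs from 250 bases before to 50 bases after a RefSeq start on GRCm38.p6, 5′ to 3′ on the strand of the gene. GGGCGG (the GC box), TATAAA (the TATA box) and TGACGTCA (the cAMP response element) or their reverse complements are in capitals.
Gabra4: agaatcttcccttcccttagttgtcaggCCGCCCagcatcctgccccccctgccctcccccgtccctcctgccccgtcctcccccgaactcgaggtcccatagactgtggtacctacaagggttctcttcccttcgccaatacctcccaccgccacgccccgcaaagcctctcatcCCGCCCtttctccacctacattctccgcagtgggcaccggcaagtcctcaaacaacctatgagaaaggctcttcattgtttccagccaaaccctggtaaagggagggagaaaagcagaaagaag
Gabrb1: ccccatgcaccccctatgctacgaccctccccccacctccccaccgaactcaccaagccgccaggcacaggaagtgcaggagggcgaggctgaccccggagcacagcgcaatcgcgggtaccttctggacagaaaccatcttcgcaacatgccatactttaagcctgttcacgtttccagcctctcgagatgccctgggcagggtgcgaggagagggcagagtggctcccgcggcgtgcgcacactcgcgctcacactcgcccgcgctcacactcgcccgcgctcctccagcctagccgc
Gabra3: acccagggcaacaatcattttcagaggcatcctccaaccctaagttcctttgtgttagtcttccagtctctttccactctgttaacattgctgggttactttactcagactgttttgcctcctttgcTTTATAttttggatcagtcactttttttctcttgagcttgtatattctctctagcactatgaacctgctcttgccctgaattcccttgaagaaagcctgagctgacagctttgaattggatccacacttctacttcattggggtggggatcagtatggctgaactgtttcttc
Gabra5: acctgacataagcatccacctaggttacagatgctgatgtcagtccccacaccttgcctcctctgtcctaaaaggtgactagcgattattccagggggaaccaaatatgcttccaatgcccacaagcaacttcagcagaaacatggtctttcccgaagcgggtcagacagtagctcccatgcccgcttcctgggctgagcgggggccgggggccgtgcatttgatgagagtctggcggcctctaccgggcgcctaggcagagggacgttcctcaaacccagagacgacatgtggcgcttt
The windows are chr5:71658259-71658558 on the minus strand for Gabra4, chr5:71657671-71657970 on the plus strand for Gabrb1, chrX:72656870-72657169 on the minus strand for Gabra3 and chr7:57510010-57510309 on the minus strand for Gabra5. The windows of Gabra4, Gabrb1 and Gabra3 lie at the outer starts of their genes. The Gabra5 window lies at a start inside the span of its gene (chr7:57407669-57591016) and not at its outer start. Gabrb1 held 25 CG dinucleotides, Gabra5 13, Gabra4 12 and Gabra3 0. Gabra4 held GGGCGG at 2 places and Gabra3 held 1 TATAAA, while Gabrb1 and Gabra5 held none of the 3 motifs. RefSeq windows were at hand for 23 of the 26 genes, 30 windows in all, with a median of 13.5 CG dinucleotides against 7 over all 32851 promoters. On either strand GGGCGG occurred in 17 of the 30 windows (35.7% of all promoters), TATAAA in 5 (13.6% of all promoters) and TGACGTCA in 0 (1.79% of all promoters). The 5 windows with TATAAA belonged to 4 genes, since 2 overlapping Gabra3 windows held the same site. These are matches of letters and not mapped binding sites.

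Between genes, levels were compared as deposited TPM, which is per transcript length, over all 15 libraries of the 2 separately normalized tables. The order of median TPM ran from Gabbr1 (460.2) through Gad1 (425), Abat (294), Slc12a5 (291), Slc32a1 (260.4), Gabrd (192), Gabarap (184), Gad2 (182), Nlgn2 (131), Gabra4 (102) and Glrb (88.9) down to Gabra2 (77.3), Gabrb2 (62.7), Slc6a9 (57.7), Gphn (50.3), Gabbr2 (45.8), Slc12a2 (32.5), Gabra3 (23.9), Gabrb1 (21.9), Gabrg3 (19.3), Gabra5 (17.2), Gabrg1 (12.5), Glra2 (12.2), Glra3 (0.681), Gabrq (0.590) and Gabre (0.238). Neighbours in this order overlapped in their ranges over libraries, with 1 exception: the lowest Glra2 value (8.24 TPM) lay above the highest Glra3 value (3.12 TPM). Within a library the order could still be fixed; Gad1 exceeded Abat, and Gabra5 exceeded Gabrg1, in all 15 libraries, whereas Gabrg1 exceeded Glra2 in 5.

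**Figure D1:**
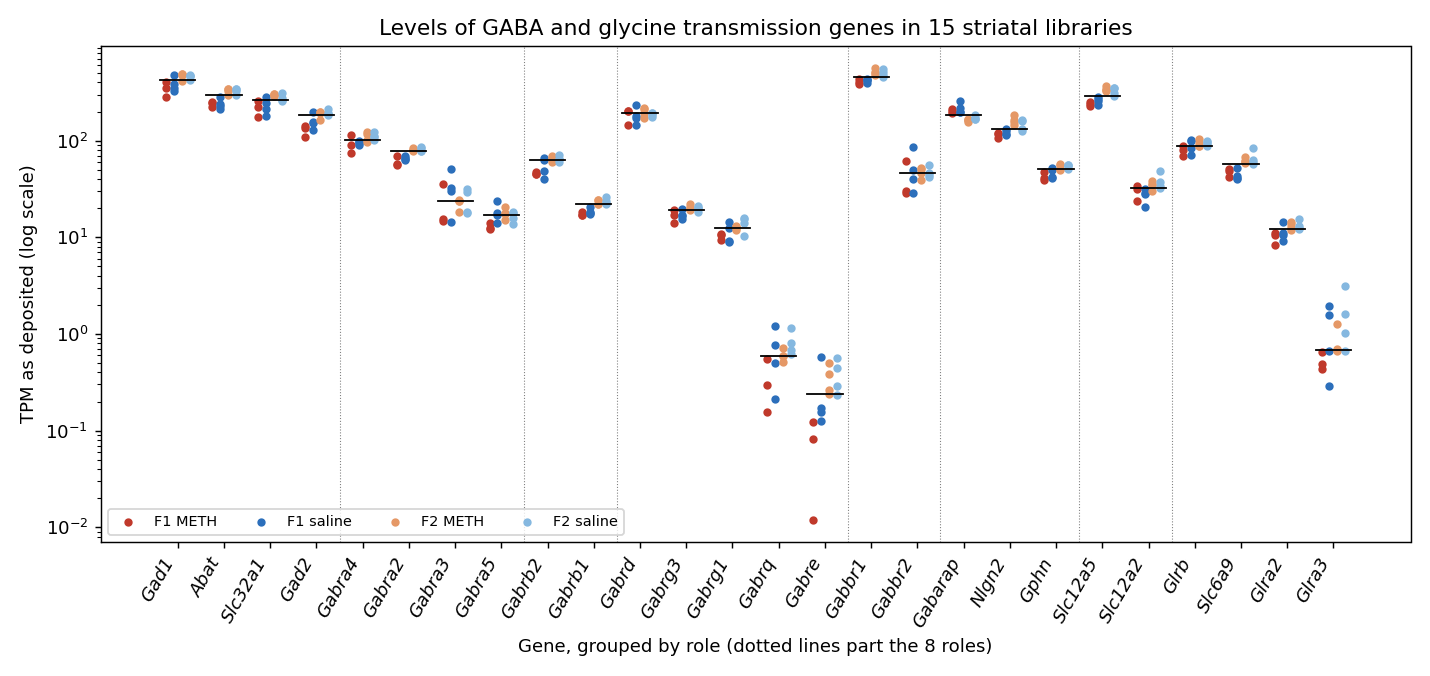
Deposited TPM (log scale) of the 26 genes in each of 15 libraries, grouped by role, with the groups F1 METH, F1 saline, F2 METH and F2 saline as colours and the median as a bar. Gabre, Gabrq and Glra3 lie far below the other genes, and Gabra3, Gabbr2 and Glra3 are spread over a wide range.

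Of the presynaptic genes, Gad1, which encodes GAD67, had 283 to 485 TPM and made up 71.0% (median; 68.9% to 74.5%) of the summed TPM of both glutamate decarboxylase genes. Gad2, which encodes the synaptic form GAD65, had 109 to 211 TPM. Slc32a1, the vesicular transporter VGAT, ranged from 176 to 310.5 TPM, and Abat, the GABA transaminase, from 210.1 to 346 TPM.

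Among the 4 GABA-A alpha subunits described here, Gabra4 took 46.5% of their summed TPM (median over libraries; 38.8% to 53.7%), Gabra2 33.3% (29.5% to 37.0%), Gabra3 10.8% (7.05% to 21.6%) and Gabra5 7.45% (5.70% to 10.1%). Gabrb2 took 73.5% of the TPM of the beta pair Gabrb1 and Gabrb2 (69.8% to 78.0%). Gabrd, the delta subunit of extrasynaptic receptors that carry tonic inhibition, took 85.1% of the summed TPM of Gabrg1, Gabrg3, Gabrd, Gabre and Gabrq (82.7% to 88.8%). The epsilon and theta subunit genes Gabre and Gabrq, known from the hypothalamus and brainstem, were at the floor, with 1 to 27 and 16 to 99 reads per library.

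Gabbr1, the subunit that binds GABA in the GABA-B receptor, had the highest median of the 26 genes and took 91.6% of the TPM of the GABA-B pair (83.6% to 93.8%). Gabbr2, the subunit that couples to the G protein, varied more, between 28.5 and 85.5 TPM. KCC2, encoded by Slc12a5, took 90.2% of the summed TPM of both chloride cotransporters (86.5% to 91.9%), and NKCC1, encoded by Slc12a2, the rest.

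The scaffold genes had 38.8 to 57.1 TPM for Gphn (gephyrin), 106 to 183 for Nlgn2 (neuroligin-2, an adhesion protein of inhibitory synapses) and 157 to 258 for Gabarap (a ubiquitin-like protein that binds GABA-A receptors). Of the glycine genes, Glrb, the beta subunit that binds gephyrin, had 69.5 to 103 TPM and Slc6a9, the glial glycine transporter GlyT1, 40.3 to 83.4. Glra2 took 94.0% of the TPM of the glycine receptor alpha pair (80.9% to 96.9%), and Glra3, an alpha subunit known from the spinal dorsal horn, the rest.

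In sons of METH founders, 0 of the 25 genes tested passed an adjusted p of 0.05 (edgeR quasi-likelihood test with Benjamini-Hochberg adjustment over 18499 genes), and 0% of all genes tested did. In bulk tissue, fewer cells of a type and less RNA per cell cannot be told apart. An unadjusted p under 0.05 was reached by 1 of the 25, Gabra5, against 4.18% of all genes tested, a share near the background. The log2 fold change was below 0 for 18 of the 25 genes and for 50.9% of all genes, with medians of −0.052 and −0.0035. Without F1 METH replicate 3, 12 of 25 genes were lower and the median was 0.0068; without all 3 F1 libraries above 100 CPM of Slc17a7, that one included, 16 of 25 were lower and the median was −0.061. On the TPM scale, which moved the median of all genes to −0.047 and the share lower to 63.4%, 21 of 25 were lower. In 0 of the 25 genes did the METH and saline libraries fall apart without overlap, against 5.5% of all genes tested.

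Gabra5, the alpha subunit of extrasynaptic receptors best known from the hippocampus, had 17.3, 13.4 and 14.6 CPM in F1 METH, against 20.4, 19.9, 26.6 and 16.6 CPM in F1 saline. Of the METH libraries, 2 lay below every saline library, and the first METH library lay above the lowest saline library. The log2 fold change was −0.47 (SE 0.17, 95% interval −0.85 to −0.087, unadjusted p = 0.0216, edgeR adjusted p = 0.994). Leaving out each library in turn gave −0.58 to −0.33. The unadjusted p (edgeR) was 0.0846 without METH replicate 2 and 0.0589 without METH replicate 3, and under 0.05 without each of the others. Slc17a7 moved with it in part: it was 31.0, 24.0 and 396 CPM in F1 METH, against 322, 98.0, 526 and 9.47 CPM in F1 saline, and 9 of 10 cortical markers had a log2 fold change below 0, with summed levels of 205 to 791 CPM in F1 METH and 218 to 990.0 CPM in F1 saline. Without the 3 F1 libraries above 100 CPM of Slc17a7 the Gabra5 value was −0.25 (unadjusted p = 0.215, edgeR). That fit held only METH replicates 1 and 2 and saline replicates 2 and 4, so its p also reflects fewer libraries. With log2 Slc17a7 as a covariate and no library left out, the Gabra5 value was −0.40 (unadjusted p = 0.0230, edgeR).

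**Figure D2:**
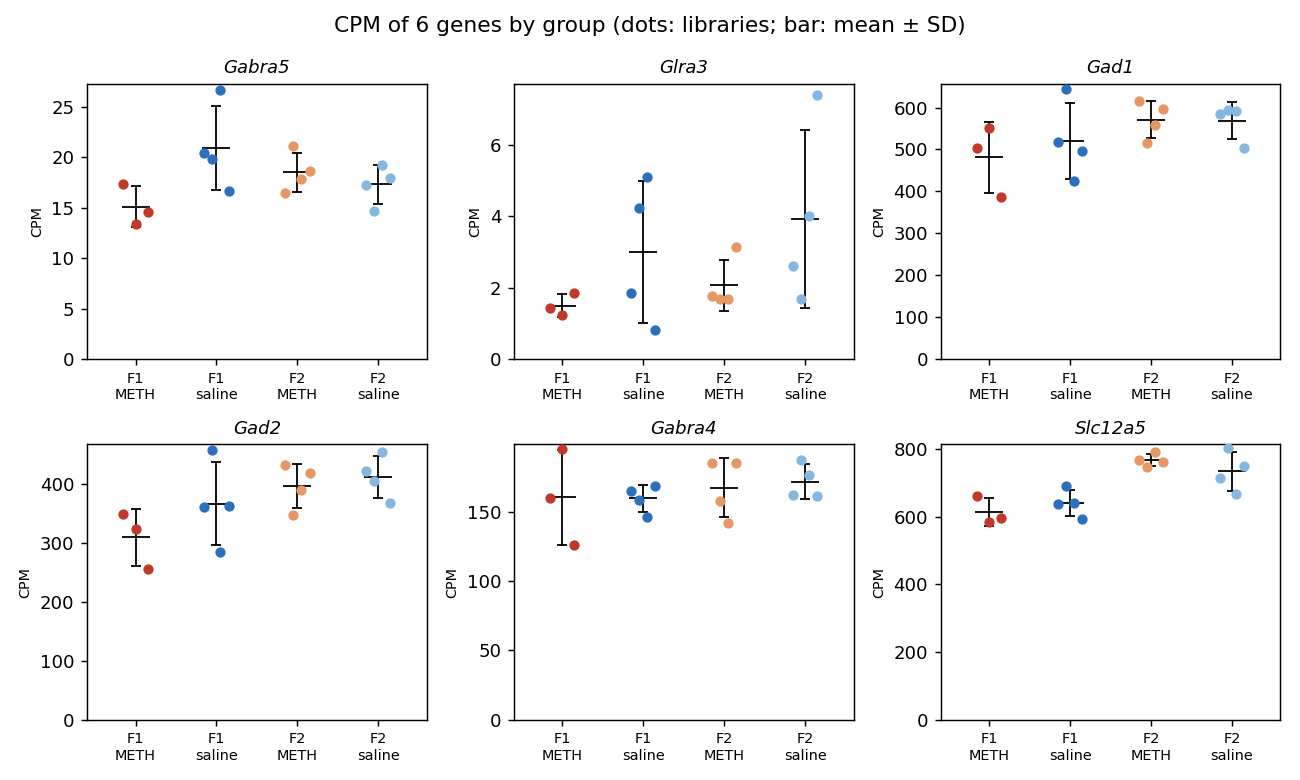
CPM of 6 genes in each library by group, with the mean and SD as bars; CPM were scaled within each generation. Gabra5 in F1 METH (13.4 to 17.3 CPM) overlaps F1 saline (16.6 to 26.6 CPM), and Glra3 has 1 high F2 saline library at 7.39 CPM.

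The genes of GABA synthesis overlapped between the groups. Gad1 had 504, 552 and 387 CPM in F1 METH, against 517, 644, 425 and 495 CPM in F1 saline, and a log2 fold change of −0.11 (SE 0.16, unadjusted p = 0.502, edgeR). The third METH library was the lowest of the 7 and the second saline library the highest. Gad2 had 349, 324 and 256 CPM in F1 METH, against 362, 458, 285 and 362 CPM in F1 saline, with a log2 fold change of −0.24 (SE 0.16, 95% interval −0.62 to 0.13, unadjusted p = 0.173, edgeR). All 3 METH libraries lay below 3 of the 4 saline libraries, and only the third METH library lay below the remaining one. Leaving out each library in turn gave −0.35 (without saline replicate 3, unadjusted p = 0.0407, edgeR) to −0.13 (without METH replicate 3, unadjusted p = 0.470, edgeR).

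Gabra4, the alpha subunit with the highest level here, had 160, 195.0 and 126 CPM in F1 METH, against 165, 159, 146 and 169 CPM in F1 saline. The METH libraries held both the highest and the lowest value, and the log2 fold change was 0.0073 (SE 0.14, unadjusted p = 0.958, edgeR). KCC2 (Slc12a5) had 662, 583 and 596 CPM in F1 METH, against 637, 690.0, 642 and 594 CPM in F1 saline. The groups covered overlapping ranges, with a log2 fold change of −0.062 (SE 0.087, 95% interval −0.26 to 0.14, unadjusted p = 0.497, edgeR). Gephyrin (Gphn) had 68.1, 74.5 and 61.1 CPM in F1 METH, against 80.0, 76.9, 61.4 and 65.3 CPM in F1 saline, and a log2 fold change of −0.062 (SE 0.11, unadjusted p = 0.601, edgeR).

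By role, the log2 fold change in F1 was below 0 for 3 of 4 presynaptic genes, 3 of 4 alpha subunits, 2 of 2 beta subunits, 2 of the 4 other GABA-A subunits tested, 1 of 2 GABA-B subunits, 3 of 3 scaffold genes, 1 of 2 cotransporters and 3 of 4 glycine genes. Among the alpha subunits the widest spread lay in Gabra3, which had 25.4, 23.3 and 55.6 CPM in F1 METH, against 46.0, 49.1, 74.9 and 22.8 CPM in F1 saline. Gabre, with 4, 1 and 6 reads in F1 METH, against 9, 27, 7 and 9 reads in F1 saline, was too low to test. Its groups did not overlap, but their nearest libraries (0.181 CPM in METH, 0.184 CPM in saline) were closer than the value of 1 read.

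For 19 of the 25 genes the 95% interval of the F1 change lay inside a 1.5-fold change either way. The genes outside 1.5-fold were Gad2, Gabra3, Gabra5, Gabrq, Gabbr2 and Glra3, for which larger changes are not excluded by these 7 libraries.

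**Figure D3:**
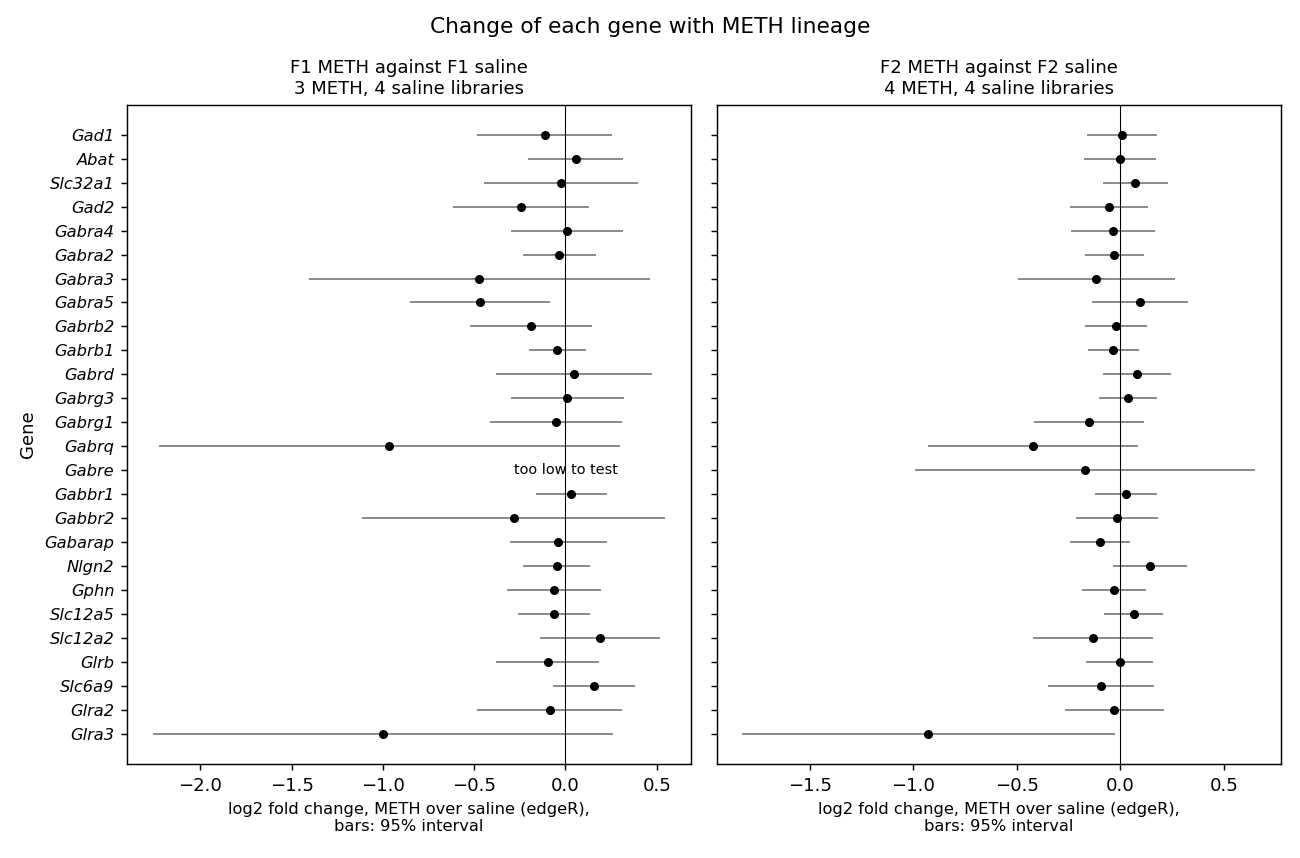
Log2 fold change of METH over saline with its 95% interval (edgeR) for each gene, F1 on the left and F2 on the right; the horizontal scales of the panels differ. In F1 only the Gabra5 interval and in F2 only the Glra3 interval leaves 0 outside, before adjustment over all genes.

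In grandsons of METH founders, 0 of the 26 genes passed the adjusted threshold, as did 0% of the 18093 genes tested (edgeR, Benjamini-Hochberg). An unadjusted p under 0.05 was reached by 1 of the 26, Glra3, against 4.77% of all genes, again a share near the background. The log2 fold change was below 0 for 18 of 26 genes and for 50.5% of all genes, with medians of −0.029 and −0.0020; without F2 saline replicates 2 and 3, the libraries high in Hspa1b, it was below 0 for 12 of 26. In 0 of the 26 genes did the groups lie apart, against 2.54% of all genes tested.

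Glra3 had 1.76, 1.68, 1.68 and 3.15 CPM in F2 METH, against 2.62, 1.69, 4.00 and 7.39 CPM in F2 saline. These were 67, 79, 53 and 113 reads in F2 METH, against 97, 58, 201 and 265 reads in F2 saline. Of the METH libraries, 3 lay close together near the lowest saline library, and the fourth lay within the saline range. The log2 fold change was −0.93 (SE 0.41, 95% interval −1.83 to −0.028, unadjusted p = 0.0444, edgeR adjusted p = 0.960). It rested in large part on the fourth saline library, without which it was −0.43 (unadjusted p = 0.215, edgeR). That library also had the highest Slc17a7 of the F2, which was 10.8, 130, 75.3 and 67.2 CPM in F2 METH, against 10.5, 9.80, 55.9 and 182 CPM in F2 saline. Without F2 METH library 2 and F2 saline library 4, both above 100 CPM of Slc17a7, the Glra3 value was −0.34 (unadjusted p = 0.365, edgeR), and with log2 Slc17a7 as a covariate it was −0.94 (unadjusted p = 0.0117, edgeR). Without F2 saline replicates 2 and 3 it was −1.28 (unadjusted p = 0.0137, edgeR). In F1, Glra3 had 1.44, 1.22 and 1.84 CPM in METH, against 1.85, 4.24, 5.10 and 0.818 CPM in saline. The METH libraries lay within the saline range, and the log2 fold change, added here after the F2 values were seen, was −1.0 (SE 0.56, 95% interval −2.26 to 0.26, unadjusted p = 0.106, edgeR), below 0 as in F2.

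Among the genes of GABA synthesis in F2, Gad1 had 615, 516, 559 and 595 CPM in METH, against 585, 595, 591 and 503 CPM in saline. The fourth saline library was the lowest of the 8, and the log2 fold change was 0.0079 (SE 0.076, 95% interval −0.16 to 0.18, unadjusted p = 0.919, edgeR). Gad2 had 432, 347, 390 and 418 CPM in F2 METH, against 422, 405, 455 and 368 CPM in F2 saline. Its log2 fold change was −0.055 (SE 0.085, unadjusted p = 0.530, edgeR), and its groups overlapped over most of their range.

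Of the receptor genes in F2, Gabra4 had 185, 157, 142 and 185 CPM in METH, against 162, 187, 176 and 161 CPM in saline, with a log2 fold change of −0.037 (SE 0.092, unadjusted p = 0.696, edgeR). Gabra5 had 16.4, 21.1, 17.8 and 18.6 CPM in F2 METH, against 17.3, 14.7, 19.3 and 18.0 CPM in F2 saline. The METH group held the highest library and the saline group the lowest, and the log2 fold change was 0.096 (SE 0.11, 95% interval −0.14 to 0.33, unadjusted p = 0.385, edgeR).

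Slc12a5 had 768, 748, 791 and 761 CPM in F2 METH, against 716, 803, 667 and 750.5 CPM in F2 saline, and a log2 fold change of 0.064 (SE 0.065, unadjusted p = 0.349, edgeR). The METH libraries lay close together inside the saline range. Gphn had 80.2, 69.6, 68.0 and 79.0 CPM in F2 METH, against 79.1, 77.2, 72.7 and 74.6 CPM in F2 saline, with a log2 fold change of −0.032 (SE 0.070, unadjusted p = 0.651, edgeR).

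By role, the F2 log2 fold change was below 0 for 2 of 4 presynaptic genes, 3 of 4 alpha subunits, 2 of 2 beta subunits, 3 of the 5 other GABA-A subunits, 1 of 2 GABA-B subunits, 2 of 3 scaffold genes, 1 of 2 cotransporters and 4 of 4 glycine genes. The 95% interval lay inside a 1.5-fold change either way for 23 of the 26 genes. Gabre, Gabrq and Glra3, the 3 lowest genes, were those outside 1.5-fold.

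The difference between generations, the METH effect in F2 minus that in F1, was tested as an interaction over all 15 libraries. Animal numbers in the sample descriptions recur between generations (1, 3, 6 and 7 in F2 saline and F1 saline, 2 and 9 in F2 METH and F1 METH); whether this marks descent is not stated, and the test treats all 15 animals as independent. None of the 26 genes passed the adjusted threshold, against 0.00518% of 19308 genes, that is 1 gene, Aox4, an aldehyde oxidase gene outside the list named after its values were seen (edgeR adjusted p = 0.0317). An unadjusted p under 0.05 was reached by 1 of the 26, against 4.88% of all genes: Gabra5, with a difference of 0.56 on the log2 scale (SE 0.20, 95% interval 0.13 to 0.99, unadjusted p = 0.0142, edgeR adjusted p = 0.909). Its fold change was thus above 0 in F2 and below 0 in F1, and without the 5 libraries above 100 CPM of Slc17a7 the difference was 0.29 (unadjusted p = 0.204, edgeR). The interaction shares its F1 libraries with the F1 comparison and adds no independent support to it.

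For the other genes followed throughout, the difference was 0.11 for Gad1 (SE 0.18, unadjusted p = 0.545, edgeR), 0.18 for Gad2 (SE 0.19, unadjusted p = 0.354, edgeR) and −0.054 for Gabra4 (SE 0.17, unadjusted p = 0.761, edgeR). For Slc12a5 the value was 0.12 (SE 0.10, unadjusted p = 0.271, edgeR) and for Gphn 0.020 (SE 0.13, unadjusted p = 0.883, edgeR). The difference was above 0 for 18 of the 26 genes and for 49.9% of all genes; without the third F1 METH library it was above 0 for 12. For Glra3, picked here after its F2 values were seen, the difference was 0.070 (SE 0.73, unadjusted p = 0.925, edgeR), and its 95% interval ran from −1.49 to 1.63.

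Ratios between partner genes within a library do not depend on the scaling of libraries. The NKCC1 to KCC2 ratio (Slc12a2 over Slc12a5), which falls as neurons mature and GABA becomes inhibitory, was −3.24, −2.62 and −2.74 in F1 METH, against −3.07, −2.99, −3.08 and −3.34 in F1 saline, as log2 of the ratio of counts. Of the METH libraries, 2 lay above every saline library and the first lay below 3 of the 4. The means were −2.87 ± 0.33 in F1 METH and −3.12 ± 0.15 in F1 saline (SD; exact two-sided permutation p = 0.229). In F2 the ratio was −2.97, −3.05, −3.21 and −3.33 in METH, against −2.52, −3.21, −2.82 and −3.25 in saline, with means of −3.14 ± 0.16 in METH and −2.95 ± 0.34 in saline (SD; exact two-sided permutation p = 0.429). The METH minus saline difference was therefore above 0 in F1 and below 0 in F2, both within the spread between libraries. With each library left out the difference was 0.13 (without METH replicate 2) to 0.44 (without METH replicate 1) in F1, and −0.29 (without saline replicate 4) to −0.043 (without saline replicate 1) in F2. In bulk tissue the ratio is taken over all cell types. F1 METH replicates 2 and 3 and F2 saline replicate 1 had summed oligodendrocyte markers of 10371, 10911 and 13469 CPM, the highest of their generations. F1 saline replicate 4, with the lowest ratio, had the most in F1 saline, 8691 CPM. The part of cell types in the ratio was not tested.

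The Gad1 to Gad2 ratio was 0.53, 0.77 and 0.60 in F1 METH, against 0.51, 0.49, 0.58 and 0.45 in F1 saline, on the log2 scale. It averaged 0.63 ± 0.12 in F1 METH and 0.51 ± 0.052 in F1 saline (SD; exact two-sided permutation p = 0.114), and in F2 0.53 ± 0.031 in METH and 0.46 ± 0.073 in saline (SD; exact two-sided permutation p = 0.143). The METH mean was above the saline mean in both generations, with overlap in each. With each library left out the difference was 0.054 (without METH replicate 2) to 0.18 (without METH replicate 1) in F1, and 0.036 (without saline replicate 3) to 0.095 (without saline replicate 2) in F2. For Gabra2 over Gabra4, Gabrb1 over Gabrb2 and Gabbr1 over Gabbr2 the exact two-sided permutation p lay between 0.514 and 0.857. Of the 10 tests, 0 passed after Benjamini-Hochberg adjustment, where the smallest value was 0.714 and the smallest p the design allows was 0.0286.

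**Figure D4:**
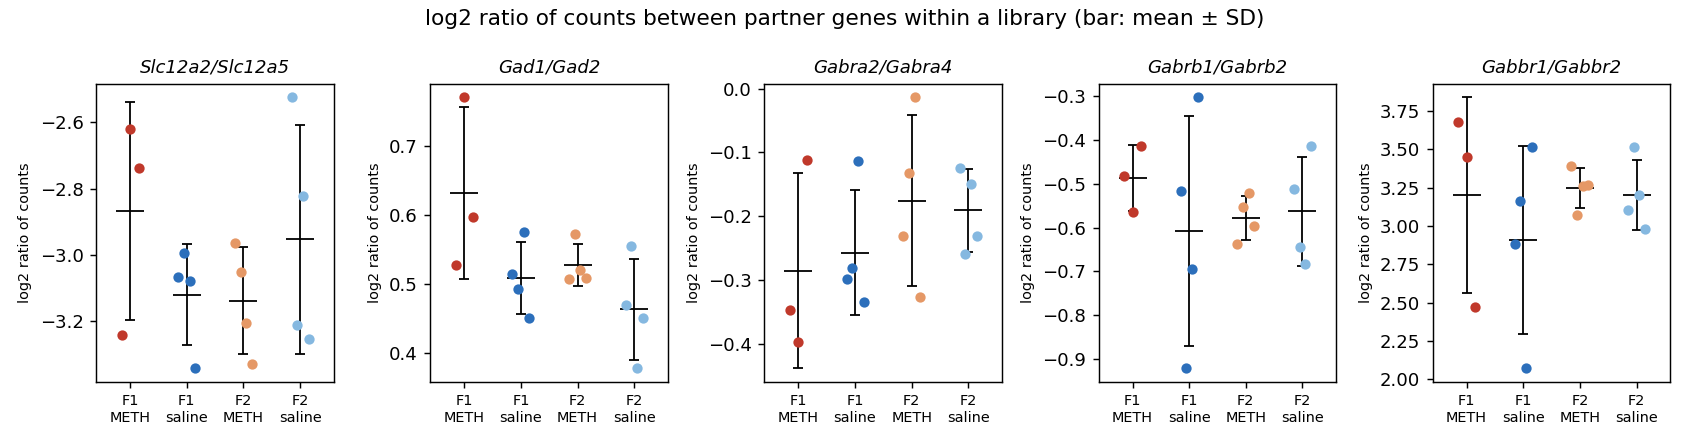
Log2 ratio of counts between 5 pairs of partner genes in each library, by group, with the mean and SD as bars; each panel has its own scale. The groups overlap in every panel, and Gad1 over Gad2 has a higher METH than saline mean in both generations (0.63 METH and 0.51 saline in F1, 0.53 METH and 0.46 saline in F2).

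The genes differed in how much they varied between libraries. Over all 15 libraries the coefficient of variation of CPM was 66.3% for Glra3, 59.1% for Gabre, 43.9% for Gabrq, 39.2% for Gabra3 and 30.1% for Gabbr2, and at the other end 8.26% for Gabbr1, 8.62% for Gabra2, 8.71% for Gabrb1 and 9.05% for Gphn. The median over the genes was 14.4% in F1 METH, 16.6% in F1 saline, 8.05% in F2 METH and 9.06% in F2 saline, so the F2 libraries were closer together.

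Of the 5 most variable genes, Gabre and Gabrq were highest in F1 saline replicate 2, at 98.0 CPM of Slc17a7. Glra3 had 5.10 CPM in F1 saline replicate 3 and 4.24 CPM in F1 saline replicate 2. It had only 1.84 CPM in F1 METH replicate 3 and 1.85 CPM in F1 saline replicate 1, both above 100 CPM of Slc17a7. Gabbr2 and Gabra3 were high in the F1 libraries with the most Slc17a7, though Gabra3 was lower in F1 saline replicate 1 (46.0 CPM) than in replicate 2 (49.1 CPM). Gabbr2 had 70.3, 71.4 and 142 CPM in F1 METH, against 113, 91.5, 189 and 67.4 CPM in F1 saline, and the 3 libraries above 100 CPM of Slc17a7 were its 3 highest. Gabra3 was highest in F1 METH replicate 3 (55.6 CPM) and F1 saline replicate 3 (74.9 CPM), the pair with the most Slc17a7. The same 3 libraries were the lowest of the 7 for Slc32a1, at 213 CPM in F1 METH and at 253 and 207 CPM in F1 saline, and for Gabrd, at 114 CPM in F1 METH and at 133 and 109.5 CPM in F1 saline. In F2, where Slc17a7 reached 182 CPM, Gabra3 had 26.4 to 34.4 CPM in METH and 25.7 to 42.3 CPM in saline. The part of cortical RNA in these values was not tested.

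**Figure D5:**
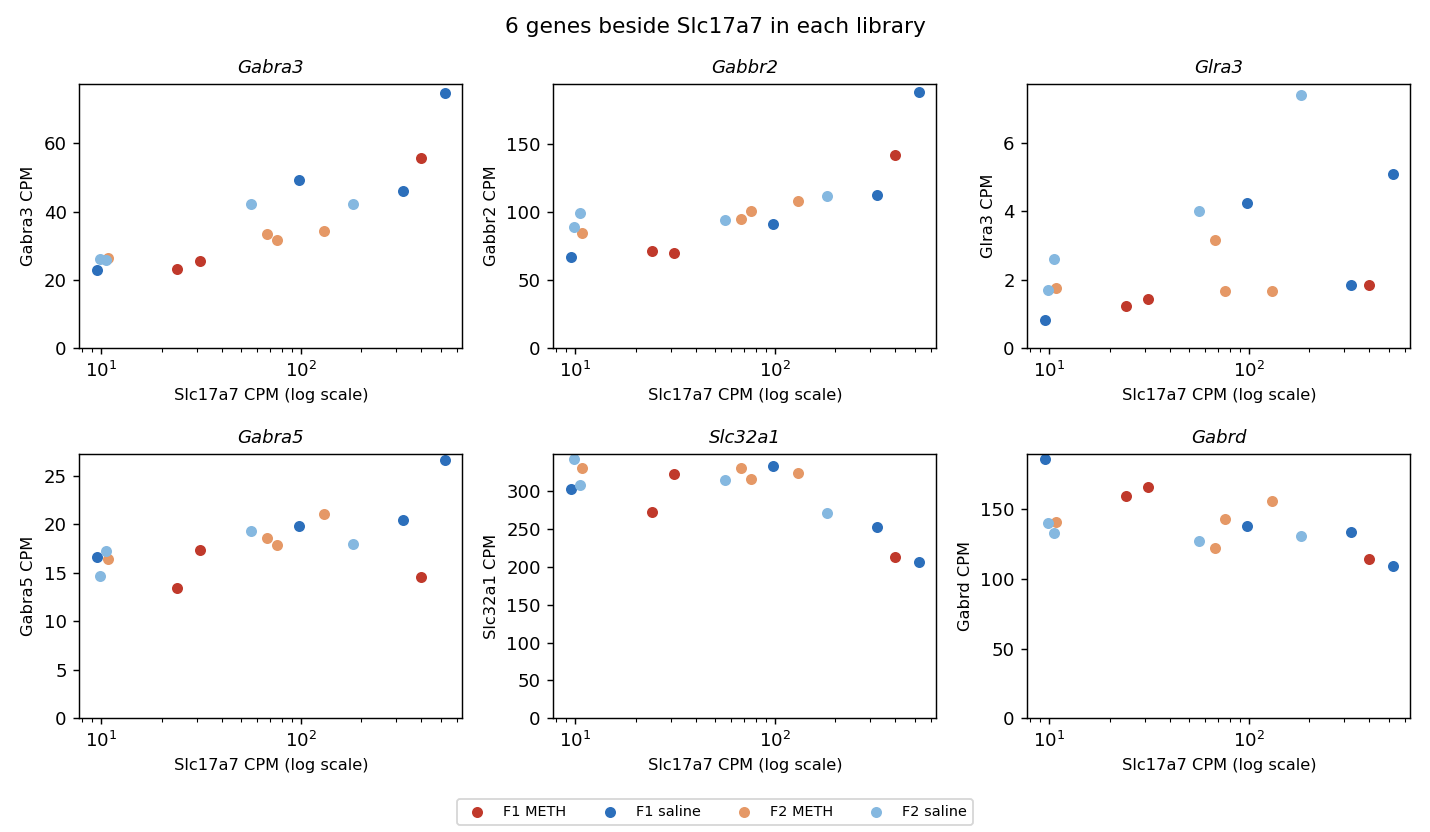
CPM of 6 genes (linear scale) against CPM of Slc17a7 (log scale), 1 point per library, coloured by group. The libraries with the most Slc17a7 (396 CPM in F1 METH, 526 CPM in F1 saline) have the highest Gabra3 and Gabbr2 and low Slc32a1 and Gabrd.

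The summed levels of cell type markers are given beside these values; METH and saline libraries overlapped for each list, and the log2 fold change was below 0 for 50.9% of all genes in F1 and 50.5% in F2. In F1, spiny projection neuron markers had a log2 fold change above 0 for 9 of 10 genes (summed 7089 to 10216 CPM in METH, 5738 to 9092 CPM in saline), astrocyte markers for 9 of 10 (3913 to 5657 CPM in METH, 3410 to 3977 CPM in saline) and oligodendrocyte markers for 10 of 10 (7783 to 10911 CPM in METH, 6962 to 8691 CPM in saline), while interneuron markers were below 0 for 8 of 10 (423 to 548 CPM in METH, 433 to 606 CPM in saline). In F2, interneuron markers were below 0 for 10 of 10 (439 to 477 CPM in METH, 468 to 510 CPM in saline) and astrocyte markers for 9 of 10 (4020 to 4571 CPM in METH, 4088 to 5335 CPM in saline). Oligodendrocyte markers were below 0 for 9 of 10 in F2, and spiny projection neuron markers above 0 for 9 of 10 and cortical markers for 6 of 10. An unadjusted p under 0.05 (edgeR) was reached in F1 by 4 of 10 oligodendrocyte, 2 of 10 astrocyte and 1 of 10 interneuron markers. It was reached by 0 of 10 spiny projection neuron and 0 of 10 cortical markers, against 4.18% of all genes. In F2 it was reached by 4 of 10 astrocyte markers, against 4.77% of all genes. For oligodendrocyte, interneuron, spiny projection neuron and cortical markers it was 0 of 10 each in F2. None of these markers passed the adjusted threshold (edgeR), and their part in the values of the 26 genes was not tested.

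Generation coincides with the deposited table, so levels in F2 and F1 are set side by side without a test, under 1 scaling over the 15 libraries. Gabarap was the 1 gene of the 26 whose F2 libraries (62.5 to 79.6 CPM) lay wholly below its F1 libraries (89.5 to 122 CPM), against 4.77% of all genes tested. In the other direction there were 0 of 26, against 1.83% of all genes.

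Beyond the 26 genes, a list of 45 other inhibitory synapse genes was followed, among them scaffold and adhesion proteins, GABA and glycine transporters and the kinases that act on the chloride cotransporters. In F1, 0 of 39 tested genes passed the adjusted threshold, 3 had an unadjusted p under 0.05 (4.18% of all genes did), and 19 had a log2 fold change above 0 and 20 below (50.9% of all genes were below). Oxsr1, a kinase that phosphorylates NKCC1 and KCC2, had 72.7, 71.5 and 82.1 CPM in F1 METH, against 62.3, 64.9, 63.2 and 65.5 CPM in F1 saline. All METH libraries lay above all saline libraries, as in 3.08% of all genes, and the log2 fold change was 0.24 (SE 0.072, unadjusted p = 0.00998, edgeR adjusted p = 0.994).

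The other genes of that list under an unadjusted p of 0.05 in F1 were Insyn2a, an inhibitory synapse protein (−0.40, SE 0.14, unadjusted p = 0.0217, edgeR; 7.29 to 8.54 CPM in F1 METH, 8.67 to 12.1 CPM in F1 saline, without overlap, as in 2.42% of all genes in that direction), and Slc7a10, an astrocyte transporter of glycine and small amino acids (0.30, SE 0.13, unadjusted p = 0.0428, edgeR). In F2, 0 of 39 passed, with 17 above 0 and 22 below (50.5% of all genes were below). Under an unadjusted p of 0.05 were 3 genes (4.77% of all genes were, 2.66% lower and 2.11% higher), each below 0: Dbi, the diazepam binding inhibitor (−0.27, SE 0.097, unadjusted p = 0.0198, edgeR), Slc6a13, the GABA transporter GAT2 (−0.67, SE 0.25, unadjusted p = 0.0212, edgeR), and Slc7a10 (−0.21, SE 0.082, unadjusted p = 0.0262, edgeR).

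Of the 40 genes of the list tested for the difference between generations, 0 passed, and 3 had an unadjusted p under 0.05 (4.88% of all genes did). Oxsr1 had the smallest p, with a difference of −0.37 (SE 0.087, unadjusted p = 0.000688, edgeR adjusted p = 0.854). In F2 it had 66.7, 68.6, 66.1 and 64.8 CPM in METH, against 76.9, 66.7, 74.6 and 71.5 CPM in saline, so that 3 of the 4 METH libraries lay below or level with the lowest saline library and the second lay above it. Slc7a10 (−0.52, SE 0.15, unadjusted p = 0.00372, edgeR) and Trak2, a kinesin adaptor that binds GABA-A receptors (−0.35, SE 0.16, unadjusted p = 0.0485, edgeR), came next. The difference was below 0 for 10 of 10 astrocyte, 9 of 10 oligodendrocyte and 9 of 10 spiny projection neuron markers. It was below 0 for 3 of 10 interneuron, 1 of 10 cortical and 4 of 7 tested thalamic and hypothalamic markers, against 50.1% of all genes. An unadjusted p under 0.05 (edgeR) was reached by 5 of 10 astrocyte, 3 of 10 oligodendrocyte and 2 of 7 thalamic and hypothalamic markers. For spiny projection neuron, interneuron and cortical markers it was 0 of 10 each, against 4.88% of all genes. The part of these cell types in the 3 genes was not tested.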

How the data were processed

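RNA of 15 striatal libraries was measured, 1 deposited table per generation. Per the file headers, the authors' tables hold read counts, FPKM and TPM per gene for 45777 features; the FPKM were not used. The submitters' processing notes name build mm10 and the tools StringTie 2.1.3b, HISAT2 2.1.0, Trimmomatic and bcl2fastq 2.20.0; the order and settings of these, the strandedness and how reads were counted: not given in the sources used here. Whole numbers with unequal totals, the deposited counts were used as raw counts. The deposited TPM of the authors served for levels between genes. Column names matched all 45 value columns to samples.

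Sample titles gave the groups. The test was edgeR 4.0.16 (quasi-likelihood on counts, TMM, filterByExpr with a minimum count of 10) in R 4.3.3, each generation on its own table and the difference as an interaction, with Benjamini-Hochberg adjustment over all genes tested and a threshold of 0.05. CPM used TMM-scaled totals. Ratios were compared by exact two-sided permutation over libraries, with adjustment over 10 tests. The alternatives used the size factors and the Wald test of DESeq2 1.42.0, limma 3.58.1 (voom, or trend on log2 of TPM + 1), no filter, a replicate block, 1 fit of all 15 libraries, leaving out each library, and leaving out libraries with Slc17a7 above 100 CPM or F2 saline libraries 2 and 3. A Slc17a7 covariate was added after seeing the data. The steps were tested on simulated data. Of 21 replicate pairs, 0 agreed within sampling noise (chi-square per degree of freedom 15.0 to 60.4).

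The genes and lists were chosen with earlier results of these data known. A log2 fold change was printed for genes with an unadjusted p under 0.05 or without overlap and, whatever the result, for Gad1, Gad2, Gabra4, Gabra5, Slc12a5 and Gphn; of the other inhibitory synapse genes, the 3 with the smallest p per comparison were named. Promoter sequences are RefSeq's, on GRCm38.p6; Abat, Gabrd and Slc12a2 had none in the table used. Plots used Python 3.11.15 and matplotlib 3.10.9.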

Additional observations from a re-analysis of the deposited data

Results flagged for a closer look

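Of 78 groups of 4 libraries examined, 1 per gene and group, 6 held a library far from the other 3 in CPM; chance alone flags about 1 in 20 such groups. In F2 METH, replicate 4 was highest for Glra3 at 3.15 CPM (the others 1.68 to 1.76) and replicate 3 was highest for Slc6a9 at 77.1 CPM (the others 72.2 to 73.0). In F2 saline, replicate 4 was lowest for Gad1 at 503 CPM (the others 585 to 595), replicate 2 was highest for Gabbr1 at 1018 CPM (the others 854 to 881) and replicate 3 was highest for Glra2 at 18.4 CPM (the others 14.8 to 14.9). In F1 saline, replicate 2 was highest for Gabre at 0.763 CPM (the others 0.184 to 0.248), which was 27 reads. Of the 6, the Gad1 library is also the F2 library with the most Slc17a7 (182 CPM).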

How the results depend on the processing

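None of the 26 genes passed the adjusted threshold in any setting run. Over all genes, calls in F1 (0) were 7 with DESeq2, 3 with limma-voom, 1 each on TPM, in 1 fit of all 15 libraries and without libraries above 100 CPM of Slc17a7, and 0 to 2 with each library left out. In F2 (0) they were 9 with DESeq2, 1 with limma-voom, 1 without libraries above 100 CPM of Slc17a7, 4 without F2 saline libraries 2 and 3, and 0 to 1 with each library left out. For the difference (1) they were 4 with DESeq2, 0 with limma-voom, on TPM, with the replicate block, with the Slc17a7 covariate and without libraries above 100 CPM of Slc17a7, and 0 to 2 with each library left out. Genes of the 26 with a difference below 0 (8) were 5 on TPM, where 36.6% of all genes were below 0, and 6 to 14 with each library left out. Genes lower in METH were 12 to 21 of 25 in F1 and 14 to 19 of 26 in F2 with each library left out. The small log2 fold changes turned sign. Gabra4 in F1 was −0.014 with limma-voom, −0.067 on TPM and −0.052 with the covariate, and −0.16 to 0.15 with each library left out; in F2 it was 0.049 without F2 saline libraries 2 and 3, and −0.091 to 0.034; its difference was 0.029 on TPM and 0.031 with the covariate, and −0.20 to 0.13. Gphn without libraries above 100 CPM of Slc17a7 was 0.0066 in F1 and −0.015 for the difference; with each library left out it was −0.13 to 0.0068 in F1, −0.072 to 0.0066 in F2 and −0.049 to 0.11 for the difference. Gad1 in F2 was −0.00067 without libraries above 100 CPM of Slc17a7 and −0.0064 in 1 fit of all 15 libraries; with each library left out it was −0.22 to 0.020 in F1, −0.048 to 0.053 in F2 and −0.022 to 0.24 for the difference. Gad2 in F2 was 0.0062 without F2 saline libraries 2 and 3, and −0.11 to 0.0039 with each library left out. Without libraries above 100 CPM of Slc17a7 the F2 log2 ratio differences were −0.013 for Gabra2 over Gabra4 and 0.028 for Gabrb1 over Gabrb2; with each library left out they were −0.12 to 0.027 for Gabra2 over Gabra4 in F1 and in F2 −0.039 to 0.065 for Gabra2 over Gabra4, −0.054 to 0.036 for Gabrb1 over Gabrb2 and −0.028 to 0.15 for Gabbr1 over Gabbr2. The cause of these turns was not tested. Same-numbered METH and saline libraries correlated at −0.062, 0.069 and 0.53 in F1 and at −0.084 to 0.073 in F2. Differently numbered ones correlated at −0.49 to 0.37 in F1 and at −0.15 to 0.16 in F2. The value of 0.53 belongs to the F1 libraries with the most Slc17a7 (396 CPM in METH, 526 CPM in saline). No label gives litter or founder, so these values cannot decide whether replicate numbers pair the animals. With the replicate block, 16 of 25 genes were lower in F1, against 48.8% of all genes, and 17 of 26 in F2, against 50%. An unadjusted p under 0.05 (edgeR) was reached under the block by 7 in F1 and 1 in F2. The share of all genes at that p under the block is not given here, so the 7 cannot be set against a background. F1 saline replicate 4 had no METH library of its number and did not inform the F1 block. Gabre, Gabrq and Glra3 had at most 27, 99 and 265 reads per library, which limits their precision.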
